A study of Mus musculus with 7 samples.

Results

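The tRNAs for isoleucine (mt-Ti), methionine (mt-Tm) and tryptophan (mt-Tw) flank the mRNAs mt-Nd1 and mt-Nd2 on the heavy (H) strand transcript of mouse mitochondria. They were taken by name and are 3 of the 22 mitochondrial tRNAs and of 49584 listed features. Small RNA from crude heart mitochondria had been sequenced in 4 knockout libraries (labelled Tefm -/- and L/L, cre) and 3 control libraries (labelled Tefm +/+ and L/L), and the comparison asked how mitochondrial RNAs differ when Tefm, the mitochondrial transcription elongation factor, is missing. Both groups share the L/L label, which read with the protocol marks a Tefm allele with a loxP-flanked exon, and in knockout mice cre expressed under muscle creatinine kinase control (as the labels spell it) removed that exon. That promoter works in muscle cells, so other cells of the heart keep the gene. The labels used here give no age, sex or strain. The design text counts 4 mice a group, of which 3 controls were analysed here, so each library was taken as 1 mouse, and if libraries came from fewer mice the p-values cover only the spread between libraries.

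Each strand of mitochondrial DNA gives a long precursor RNA in which tRNAs stand between the rRNAs and mRNAs, and the tRNAs are cut out at both ends, which frees the RNAs between them. The tRNA for methionine serves both the start codon and internal methionine codons in mitochondria. The tRNA for tryptophan also reads UGA, which is a stop codon in the cytosol, and the tRNA for isoleucine reads AUU and AUC. TEFM makes the mitochondrial RNA polymerase more processive.

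All 3 tRNAs matched a GENCODE M21 entry by symbol. The sequences are shown because the 3 tRNAs lie close together and are read from the same precursor, yet differ in base composition and in how they behaved below. Anticodons are in capitals, and the bases are those of the RNA-like strand, read 5′ to 3′ and written as DNA (GENCODE M21, GRCm38, plus strand).
mt-Ti, chrM:3706-3774: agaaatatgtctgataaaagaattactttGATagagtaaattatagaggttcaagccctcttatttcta
mt-Tm, chrM:3845-3913: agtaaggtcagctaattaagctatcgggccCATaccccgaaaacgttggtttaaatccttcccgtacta
mt-Tw, chrM:4950-5016: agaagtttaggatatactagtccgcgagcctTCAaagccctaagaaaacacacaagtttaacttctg
Lengths were 69, 69 and 67 bases. GC content was 27.5% in mt-Ti, rank 20 of the 22 mitochondrial tRNAs from high to low. It was 44.9% in mt-Tm, the highest of the 22, and 40.3% in mt-Tw, rank 4. The acceptor stem, formed by the ends of the molecule, held 7 Watson-Crick pairs in mt-Ti and in mt-Tw and 6 in mt-Tm. The anticodon stem held 5 in mt-Ti and in mt-Tm and 3 in mt-Tw.

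The annotated genes are packed without room between most of them. mt-Ti (ENSMUSG00000064342.1) shared 2 bases with the end of mt-Nd1 and 3 bases with mt-Tq, the glutamine tRNA of the other strand. mt-Tm (ENSMUSG00000064344.1) lay 2 bases past mt-Tq, with 0 bases between it and mt-Nd2. mt-Tw (ENSMUSG00000064346.1) shared 2 bases with the end of mt-Nd2 and lay 1 base before mt-Ta, the alanine tRNA of the other strand. The sources used here do not say whether reads were counted by strand. Counts of mt-Ti and mt-Tq are therefore uncertain where they overlap, as are those of any tRNA with a nuclear copy. The bases that mt-Ti shares with mt-Nd1 and mt-Tw with mt-Nd2 lie on the same strand, which counting by strand would not separate. Counts of these pairs are uncertain there too. Of the members only mt-Tm shares no base with a neighbour, and what this did to the levels was not tested.

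Gene counts summed to between 973835 and 1302619 per knockout library and between 1560798 and 2570739 per control library. Mitochondrially encoded RNAs took 64.6% to 88.1% of the counts in knockouts and 70.2% to 87.5% in controls. Tefm had 3 counts over all knockout and 3 over all control libraries, so its loss was not detectable at this depth. Libraries of both groups differed in composition. MicroRNA plus snoRNA counts, set against counts of nuclear protein-coding genes as a log2 ratio, came to 1.84, 3.11, 0.54 and -2.44 in knockouts 1 to 4 and 2.88, -1.35 and 0.61 in controls 1 to 3. The TMM factors, which scale library sizes, ran from 0.515 to 3.28 in knockouts and from 0.644 to 1.01 in controls. All 7 cardiomyocyte markers had counts in both groups, summing to 974 to 6429 CPM (counts scaled to a common library size) of the total in knockouts and 2083 to 3002 in controls. Fibroblast markers (4 of 4 with counts in both groups) summed to 92.8 to 1739 CPM in knockouts and 147 to 340 in controls. Endothelial markers (5 of 5) summed to 17.1 to 247 CPM in knockouts and 46.8 to 144 in controls. White blood cell markers (4 of 4) summed to 7.80 to 59.0 CPM in knockouts and 15.4 to 33.8 in controls. Erythroid markers (5 of 5) summed to 3.84 to 28.0 CPM in knockouts and 11.3 to 13.9 in controls. The upper ends of these 5 knockout ranges were all knockout 4, and the part of this in the results was not tested.

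mt-Tm was the most abundant of the 3 tRNAs in every library. mt-Ti was the scarcest in every knockout and in control 1, and mt-Tw was the scarcest in controls 2 and 3. mt-Ti had 1359, 721, 889 and 857 counts in knockouts 1 to 4, against 1829, 1723 and 2172 counts in controls 1 to 3. mt-Tm had 37452, 7973, 168584 and 225299 counts in knockouts 1 to 4, against 31086, 69589 and 173027 counts in controls 1 to 3. mt-Tw had 4264, 4720, 3348 and 2372 counts in knockouts 1 to 4, against 2828, 1500 and 1977 counts in controls 1 to 3. Among the 22 mitochondrial tRNAs, ordered by count, mt-Ti held rank 15 in each knockout and ranks 16, 16 and 14 in controls. mt-Tm held ranks 4, 4, 1 and 1 in knockouts and 4, 2 and 1 in controls. mt-Tw held ranks 10, 7, 10 and 10 in knockouts and 11, 17 and 15 in controls. Every knockout thus placed it above every control, though ranks 10 and 11 are adjacent, and this was not counted for the other tRNAs.

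As a share of all mitochondrial tRNA counts, mt-Ti was lower in every knockout than in any control. Its share was 0.361%, 0.261%, 0.230% and 0.217% in knockouts 1 to 4, against 0.534%, 0.556% and 0.478% in controls 1 to 3. The 95% Wilson interval of the highest knockout share ended at 0.381% and that of the lowest control share began at 0.459%, and such intervals cover counting error only. Of the 22 tRNAs, 17 did not overlap between the groups in this share (77.3%), so mt-Ti was in that respect like most mitochondrial tRNAs. mt-Tw had 1.13%, 1.71%, 0.865% and 0.600% in knockouts 1 to 4, against 0.825%, 0.484% and 0.435% in controls 1 to 3, and the groups overlapped through knockout 4 and control 1. The mean share of mt-Tw was 1.08% ± 0.474 in knockouts (SD, n = 4) and 0.582% ± 0.213 in controls (SD, n = 3).

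**Figure D1:**
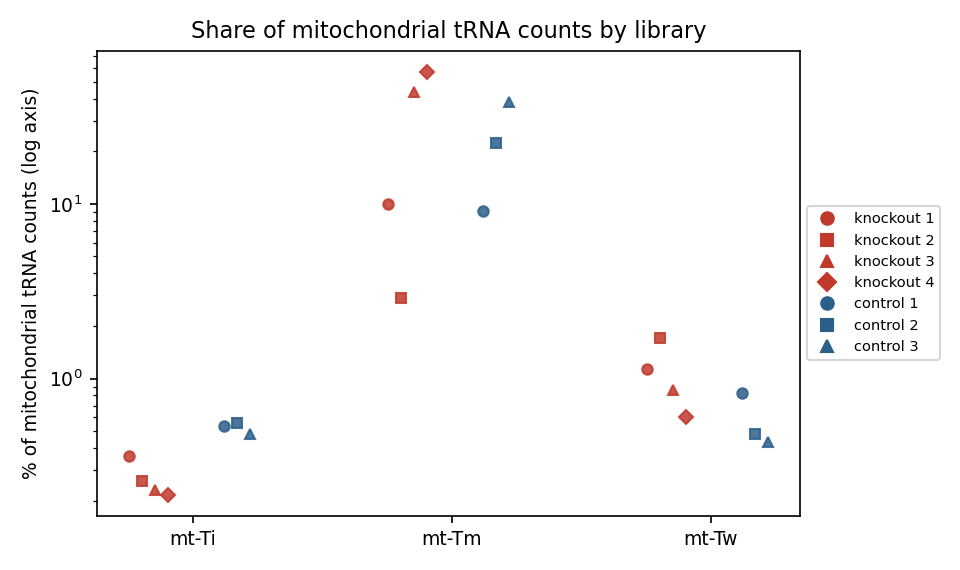
Share of mitochondrial tRNA counts (percent, log axis) taken by mt-Ti, mt-Tm and mt-Tw, with 1 point per library, 4 knockouts in red and 3 controls in blue. The mt-Ti points of the groups do not overlap, while mt-Tm runs from 2.88% to 57.0% within the knockouts alone.

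The share of mt-Tm varied more within a group than between groups. It was 9.95%, 2.88%, 43.5% and 57.0% in knockouts 1 to 4, against 9.07%, 22.5% and 38.1% in controls 1 to 3. Knockout 4 alone had 21.8% of all its counts in this tRNA. Within each group the share was low in the libraries rich in microRNA and snoRNA (knockouts 1 and 2, control 1), and what this had to do with mt-Tm was not tested. Because mt-Tm can take more than the other 21 tRNAs together, the shares were also taken without it, a choice made after the values were seen. mt-Ti then had 0.268% to 0.504% in knockouts and 0.587% to 0.773% in controls. mt-Tw had 1.26% to 1.76% in knockouts and 0.624% to 0.908% in controls, so both tRNAs were then without overlap between the groups, as were 16 of the 21 (76.2%).

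**Figure D2:**
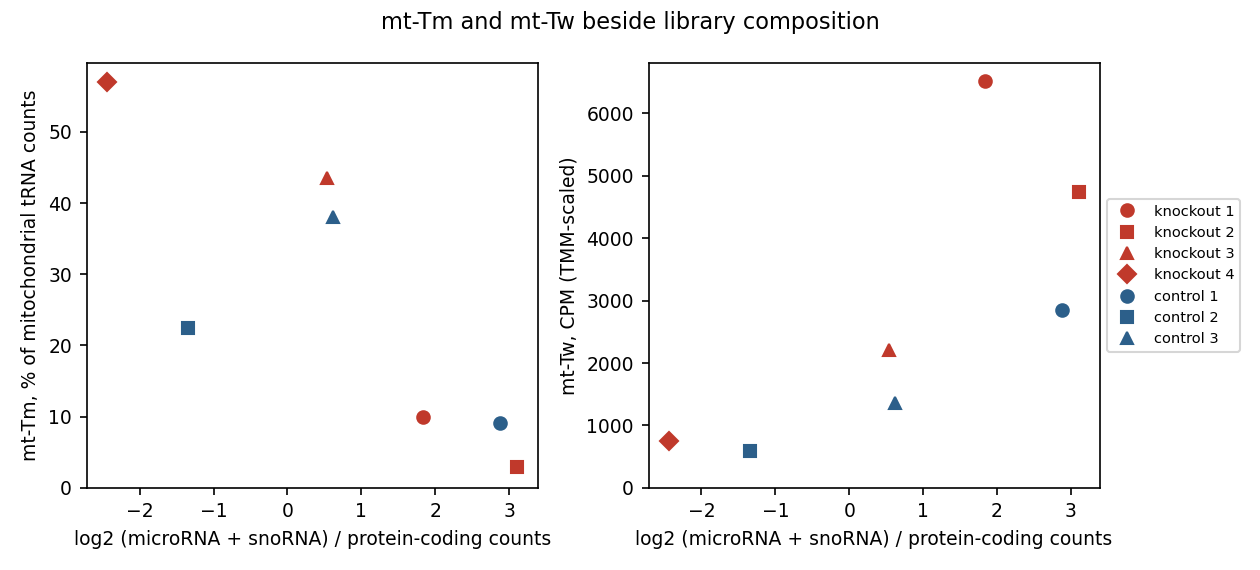
Left, share of mitochondrial tRNA counts in mt-Tm (percent); right, normalised count of mt-Tw (CPM, TMM-scaled); both against microRNA plus snoRNA counts over those of nuclear protein-coding genes (log2 ratio), with 1 point per library. The libraries with the lowest mt-Tm shares, 2.88%, 9.07% and 9.95%, have ratios of 3.11, 2.88 and 1.84.

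None of the 3 tRNAs passed the test over all genes. That test was edgeR's quasi-likelihood test on TMM-scaled counts with Benjamini-Hochberg adjustment over 1505 genes, of which 6.98% were called at an adjusted p under 0.05, 5.25% as higher in knockouts. DESeq2, which called 5.36% of the genes it tested, called none of the 3 either. mt-Ti averaged 914 ± 797 CPM in knockouts (SD, n = 4) and 1334 ± 597 in controls (SD, n = 3), and its log2 fold change was -0.55 ± 0.80 (SE), with an edgeR adjusted p of 0.749. mt-Tw averaged 3553 ± 2571 CPM in knockouts and 1596 ± 1148 in controls (SD, n = 4 and 3), and its log2 fold change was 1.15 ± 0.93 (SE), with an edgeR adjusted p of 0.507. For mt-Tm the log2 fold change was 0.07 ± 1.04 (SE, edgeR adjusted p = 0.984), with 61906 ± 42651 CPM in knockouts and 58983 ± 51471 CPM in controls (SD, n = 4 and 3). Its sign turned negative under several other settings, among them DESeq2 size factors (-0.0081). The SDs were large beside the means, and the normalised counts of the groups overlapped, as they did for all but 23.9% of the genes tested.

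Normalised counts of mt-Tw spread widely within each group. It had 6513, 4738, 2212 and 748 CPM in knockouts 1 to 4 and 2846, 588 and 1353 CPM in controls 1 to 3, and the libraries richest in microRNA and snoRNA (knockouts 1 and 2, control 1) were the highest of their groups. The part of composition in this was not tested beyond a covariate. With that ratio as a covariate the log2 fold change of mt-Tw was 1.06 (edgeR adjusted p = 0.0665), that of mt-Ti -0.66 (adjusted p = 0.311) and that of mt-Tm -0.07 (adjusted p = 0.957). In the authors' deposited table the log2 fold changes were -0.53 for mt-Ti (adjusted p = 0.825), -0.05 for mt-Tm (adjusted p = 0.988) and 0.84 for mt-Tw (adjusted p = 0.659), where 4.8% of the genes with an adjusted p were under 0.05. In such a preparation, fewer mitochondria or fewer cells of a type and less RNA in each cannot be told apart.

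**Figure D3:**
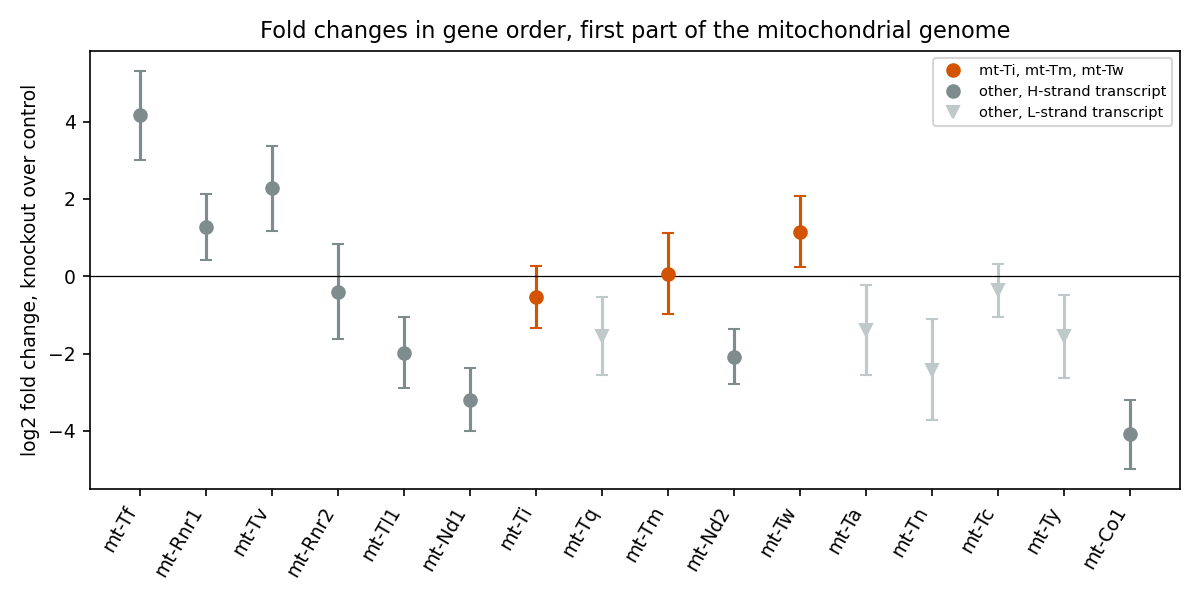
Log2 fold change of knockout over control with its standard error (edgeR, 4 knockout and 3 control libraries) for features of the first part of the mitochondrial genome, in gene order. mt-Ti, mt-Tm and mt-Tw (orange, -0.55, 0.07 and 1.15) stand above mt-Nd1 (-3.19) and mt-Nd2 (-2.09) beside them, and their error bars are wide.

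Ratios taken within a library need no scaling between libraries, and among the 3 tRNAs only mt-Tw over mt-Ti was without overlap between the groups. Levels were compared as counts per base of annotated length. mt-Tw was 3.23, 6.74, 3.88 and 2.85 times mt-Ti in knockouts 1 to 4, against 1.59, 0.897 and 0.937 times in controls 1 to 3. The mean log2 ratio was 1.98 ± 0.55 in knockouts (SD, n = 4) and 0.14 ± 0.46 in controls (SD, n = 3). The difference of 1.84 ± 0.39 (SE) is 3.57-fold, and every knockout lay above every control (two-sided exact permutation test over 35 splits, p = 0.0286, the smallest these splits can give). Over the 14 ratios of this kind that were tested the adjusted p was 0.1, so it did not pass. Of all 231 pairs of mitochondrial tRNAs, 46.8% were without overlap in the same way. Within each group mt-Tw over mt-Ti was highest in the library richest in microRNA and snoRNA (knockout 2, control 1). It was lowest in the poorest (knockout 4, control 2), while knockouts 1 and 3 stood in the reverse order. The part of composition in this ratio was not tested.

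mt-Tm relative to the other 2 was spread too widely for a difference to be seen. It was 27.5, 11.1, 189.5 and 263 times mt-Ti in knockouts 1 to 4, against 16.99, 40.4 and 79.6 times in controls 1 to 3. It was 8.53, 1.64, 48.9 and 92.2 times mt-Tw in knockouts 1 to 4, against 10.7, 45.03 and 84.96 times in controls 1 to 3. Knockouts 1 and 2 lay low and knockouts 3 and 4 high in both ratios, and every control lay within the range of the knockouts. The log2 ratio of mt-Ti over mt-Tm differed by -0.72 ± 1.41 (SE, exact permutation p = 0.6) and that of mt-Tw over mt-Tm by 1.12 ± 1.72 (SE, exact permutation p = 0.543). Without knockout 2 the last of these was 0.029.

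**Figure D4:**
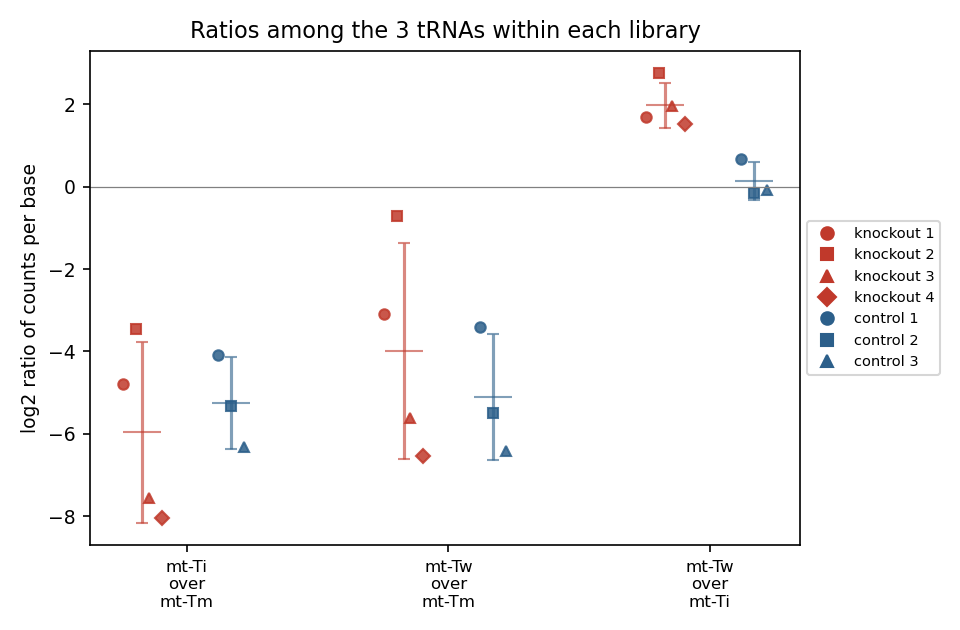
Log2 ratio of counts per base between mt-Ti, mt-Tm and mt-Tw within each library, with 1 point per library and the mean ± SD of each group (4 knockouts in red, 3 controls in blue). The mt-Tw over mt-Ti ratios are 1.51 to 2.75 in knockouts and -0.16 to 0.67 in controls, while both ratios to mt-Tm overlap.

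Against the mean of the distal H-strand tRNAs, mt-Ti and mt-Tw lay higher in every knockout than in any control. Against the mean of the upstream ones mt-Ti lay lower in every knockout, though against the upstream mt-Tl1 alone it lay higher. None of the differences from these means passed adjustment. The 8 distal tRNAs, for aspartate, lysine, glycine, arginine, histidine, serine (mt-Ts2), leucine (mt-Tl2) and threonine, lie downstream of mt-Co1. Relative to their mean log2 level, mt-Tw was at 1.38 ± 0.58 in knockouts (SD, n = 4) and -1.06 ± 0.45 in controls (SD, n = 3), a difference of 2.44 ± 0.41 (SE), or 5.43-fold. mt-Ti was at -0.60 ± 0.23 in knockouts and -1.20 ± 0.08 in controls (SD, n = 4 and 3), a difference of 0.60 ± 0.14 (SE), or 1.52-fold. Both had every knockout above every control (two-sided exact permutation test, p = 0.0286 each, adjusted p = 0.1). mt-Tm was at 5.37 ± 2.07 in knockouts and 4.05 ± 1.18 in controls (SD, n = 4 and 3, exact permutation p = 0.371). Against single distal tRNAs, the mt-Ti ratio was without overlap for mt-Tg, mt-Tk, mt-Tl2 and mt-Tr. It overlapped for mt-Td, mt-Th, mt-Ts2 and mt-Tt. The mt-Tw ratio overlapped for mt-Td only. Within each group, mt-Tw over the distal mean fell in the order of the microRNA plus snoRNA ratio. It was 2.13, 1.43, 1.24 and 0.73 in knockouts 2, 1, 3 and 4, and -0.56, -1.20 and -1.42 in controls 1, 3 and 2. The part of composition in this difference was not tested.

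The 3 tRNAs upstream of the members were mt-Tf for phenylalanine, mt-Tv for valine and mt-Tl1 for leucine. Relative to their mean log2 level, the differences of all 3 members were negative. mt-Ti was at -3.78 ± 0.27 in knockouts and -1.46 ± 0.65 in controls (SD, n = 4 and 3), a difference of -2.31 ± 0.35 (SE) without overlap (exact permutation p = 0.0286, adjusted p = 0.1). mt-Tw was at -1.80 ± 0.30 in knockouts and -1.32 ± 0.19 in controls, a smaller difference of -0.48 ± 0.20 (SE) with overlap (exact permutation p = 0.0857). mt-Tm was at 2.19 ± 2.34 in knockouts and 3.78 ± 1.71 in controls (exact permutation p = 0.4). The upstream tRNAs differed in sign and none passed the test, with log2 fold changes of 4.17 for mt-Tf, 2.27 for mt-Tv and -1.97 for mt-Tl1. Against each of them alone, the mt-Ti and mt-Tw ratios were without overlap. Both were lower in knockouts against mt-Tf and mt-Tv and higher against mt-Tl1, so the differences from the mean do not hold for each upstream tRNA.

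**Figure D5:**
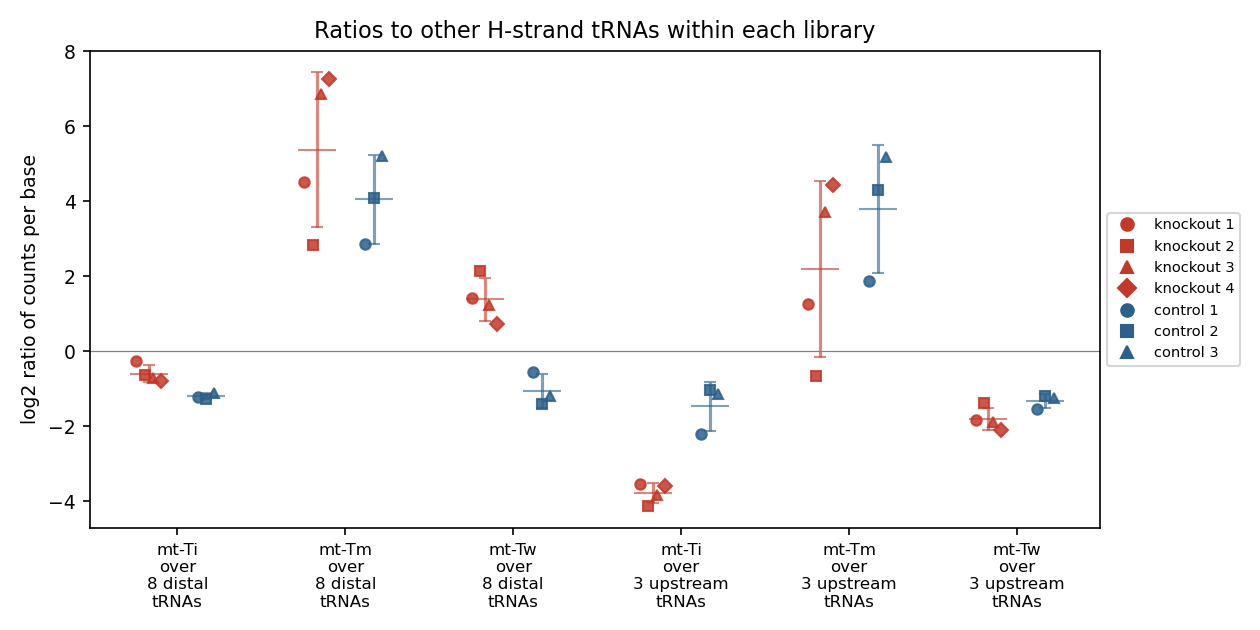
Log2 ratio of counts per base of mt-Ti, mt-Tm and mt-Tw to the mean of 8 distal and of 3 upstream H-strand tRNAs within each library, with 1 point per library and the mean ± SD of each group (4 knockouts in red, 3 controls in blue). The groups are apart for mt-Ti in both comparisons and for mt-Tw against the distal tRNAs.

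Taken tRNA by tRNA, the 3 members stood in different places among the other 19. The mt-Tw ratio was without overlap higher in knockouts against 12 of them and lower against 3 (mt-Tf, mt-Tp and mt-Tv). The mt-Ti ratio was higher against 8 and lower against 4 (mt-Te, mt-Tf, mt-Tp and mt-Tv). The mt-Tm ratio overlapped with 18 of the 19 and was lower against mt-Tf alone. Of all pairs of mitochondrial tRNAs 46.8% did not overlap, and these counts are a description, with no test.

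The ratios of the tRNAs to the mRNAs beside them, which share their precursor, overlapped between the groups, and none of the 3 passed the test. mt-Nd1 and mt-Nd2 encode subunits of complex I of the respiratory chain, and their counts are counts of short fragments. mt-Nd1 averaged 5282 ± 2072 CPM in knockouts and 48280 ± 27694 in controls (SD, n = 4 and 3, edgeR adjusted p = 0.0566). mt-Nd2 averaged 7566 ± 2513 CPM in knockouts and 32127 ± 14302 in controls (edgeR adjusted p = 0.119). Both mRNAs were lower in every knockout than in any control, where 23.9% of the genes tested did not overlap. The authors' deposited table had both under 0.05 (DESeq2 adjusted p = 5.24e-06 for mt-Nd1 and 0.00062 for mt-Nd2). Per base, mt-Tw was 9.24, 10.04, 4.76 and 2.40 times mt-Nd2 in knockouts 1 to 4, against 2.79, 0.240 and 0.493 times in controls 1 to 3, a log2 difference of 3.05 ± 1.05 (SE, exact permutation p = 0.0571) with knockout 4 below control 1. It was 4.05 without control 1 and 2.28 without control 2. mt-Ti was 3.50, 2.58, 1.56 and 0.992 times mt-Nd1 in knockouts 1 to 4, against 1.57, 0.146 and 0.320 times in controls 1 to 3, a log2 difference of 2.21 ± 0.97 (SE, exact permutation p = 0.143) with control 1 above knockouts 3 and 4. It was 3.16 without control 1 and 1.45 without control 2. mt-Tm over mt-Nd2 differed by 1.93 ± 1.17 (SE, exact permutation p = 0.171). Control 1 had the highest tRNA to mRNA ratio of the controls for mt-Ti and mt-Tw, and knockout 4 the lowest of the knockouts. For mt-Tw over mt-Nd2 the libraries of each group stood in the order of their microRNA plus snoRNA ratio. The part of composition in this was not tested.

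The ratios of mt-Tw and mt-Ti to the tRNAs of the opposite strand next to them were higher in every knockout than in any control, and neither passed adjustment. mt-Tw was 5.22, 29.6, 33.0 and 18.3 times mt-Ta in knockouts 1 to 4, against 2.10, 0.864 and 1.41 times in controls 1 to 3. Every knockout was above every control, with a log2 difference of 3.67 ± 0.79 (SE, exact permutation p = 0.0571, adjusted p = 0.114). mt-Ti was below mt-Tq in all 7 libraries, at 0.238, 0.337, 0.430 and 0.476 times mt-Tq in knockouts 1 to 4, against 0.123, 0.145 and 0.179 times in controls 1 to 3. Here too the groups did not overlap, with a log2 difference of 1.28 ± 0.29 (SE, exact permutation p = 0.0571, adjusted p = 0.114). Of the 14 ratios 6 did not overlap, where 46.8% of all mitochondrial tRNA pairs did not. The 14 also hold ratios to means of several tRNAs and to mRNAs, so the shares are not of like ratios. None of the 14 passed after adjustment, the lowest adjusted p of the exact permutation tests being 0.1.

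Of the other 11 H-strand tRNAs, 1 fell and 10 did not pass the test over all genes, where 1.73% of genes fell. The one that fell was mt-Tr, the arginine tRNA (log2 fold change -2.20 ± 0.52 SE, edgeR adjusted p = 0.0461), in a fit that called 0 genes without control 2 or without control 3. Their median log2 fold change was -1.45, against 0.07 for the 3 members and 0.02 for all genes tested. Of the 8 L-strand tRNAs none passed the edgeR test (median -0.99). The smallest adjusted p among them were those of mt-Tp for proline (2.69, edgeR adjusted p = 0.0993), mt-Tn for asparagine (-2.42, adjusted p = 0.304) and mt-Te for glutamate (1.18, adjusted p = 0.339). In the authors' deposited table, where 4.8% of genes were under 0.05, more tRNAs were. Higher were mt-Tf (3.06, DESeq2 adjusted p = 0.00044) and mt-Tp (2.19, adjusted p = 0.0068). Lower were mt-Tg (-1.70, adjusted p = 0.010) and mt-Tr (-2.13, adjusted p = 9.9e-05).

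Nuclear genes that charge, modify, cut or carry these tRNAs could not be tested. All 22 listed genes had a count in at least 1 library, and 0 had enough to enter the fit. The largest sums were those of Iars2, which charges the isoleucine tRNA, with 59 counts over the knockouts and 36 over the controls. Mars2, which charges the methionine tRNA, had 22 and 4 counts, Wars2, which charges the tryptophan tRNA, had 6 and 4, and Elac2, which cuts the 3′ end of mitochondrial tRNAs, had 26 and 7, each over knockouts and over controls. Of the 22 genes 13 had more counts over the 4 knockouts than over the 3 controls, and the others had as many or fewer. The share of all features with more counts over the knockouts was not taken, so the 13 are no result about these genes. Tufm, which brings charged tRNAs to the ribosome, had 3 over knockouts and 7 over controls. Such sums are not scaled for depth or for the number of libraries.

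The features whose normalised counts were most like those of each tRNA over the 7 libraries differed among the 3. For mt-Tw they were mt-7s (Pearson r = 0.998), then Mir350 (0.987) and Mir210 (0.977), and among mitochondrial features mt-Rnr1 (0.964) came second. For mt-Ti they were mt-Ts2 (0.974), its overlapping neighbour mt-Tq (0.945) and mt-Rnr2 (0.941). For mt-Tm they were the nuclear genes Clip4 (0.929), Gpc6 (0.909) and Itgav (0.888), and among mitochondrial features mt-Tc (0.797) and mt-Td (0.775). Between the members r was 0.59 for mt-Tw and mt-Ti, 0.0022 for mt-Ti and mt-Tm and -0.28 for mt-Tw and mt-Tm. These values describe log2 CPM that share library, group and scaling, so differences in library composition enter them all.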

How the data were processed

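Small RNA from heart mitochondria was analysed in 4 knockout and 3 control libraries, grouped and numbered by the labels. The raw counts per feature were made and deposited by the authors as whole numbers. Per the submitters' processing notes, which give no roles, the tools were DESeq2 1.14.1 in R 3.3.2, featureCounts, SAMtools 1.3.1, cutadapt 1.10, bedtools and Bowtie2, and the build was mm10. The sources used here name no annotation release, strand setting, read lengths kept or handling of multi-mapping reads. The authors' deposited table holds log2 fold changes, their standard errors, p-values and adjusted p-values. Its log2 fold changes are knockout over control, as read from their sign against the counts.

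The fit over all genes used raw counts and edgeR 4.0.16 (R 4.3.3, quasi-likelihood, TMM, 2 groups, two-sided). Its default filter (minimum count 10) came first, and genes were called at an adjusted p under 0.05. Ratios within libraries were differences of log2((count + 0.5) / annotated length), compared by exact permutation (two-sided, 35 splits) and adjusted over 14 ratios (Python 3.11.15, numpy 2.4.6, pandas 2.3.3, scipy 1.17.1, matplotlib 3.10.9). Gene lengths, coordinates and sequences came from GENCODE M21 (GRCm38). Stem pairs were counted as Watson-Crick pairs of the 7 outer bases at each end, leaving out the last base, and of the 5 bases on each side of the anticodon loop. Cell markers were summed as CPM of total counts. The procedure was tested on simulated data, which lacked the differences in composition seen between these libraries, so that check does not cover them. The members, lists and ratios were chosen with earlier results of these data known. Besides the members and the genes of the ratios, the text names the called members of each list, or else those with the 3 smallest adjusted p, and for each member the 3 features with the highest correlation of log2 CPM (prior count 2) and the 2 highest among mitochondrial features. In the list without testable members, 5 genes were named after their counts were seen. Alternatives were other scalings, filters, DESeq2 1.42.0, a replicate block, a composition covariate, another pseudocount (5), medians and each library left out. The alternatives for the shares (mt-Tm left out of the total, medians, each library left out and the replicate block, 10 settings in all) were chosen after seeing the data.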

Additional observations from a re-analysis of the deposited data

How the results depend on the processing

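No call among mt-Ti, mt-Tm and mt-Tw appeared under any of the 16 alternative settings of the fit over all genes, and mt-Ti (negative) and mt-Tw (positive) kept their signs. With 1 library left out mt-Ti was between -1.31 (without knockout 1) and -0.09 (without knockout 4), and mt-Tw between 0.65 (without control 2) and 1.74 (without control 1). mt-Tm was at -0.0081 with DESeq2 size factors in edgeR, -0.0032 without a low-count filter, -0.072 by DESeq2, -0.31 with the replicate block and -0.069 with the composition covariate, and between -0.50 and 0.91 with 1 library left out (-0.37, -0.45 and -0.50 without knockout 3, control 1 or control 2). The cause was not tested. Scaling moved the median over all genes (log2 fold change) to 0.89 (total counts), 1.12 (mitochondrially encoded features) or 0.88 (microRNA features), against 0.02, and mt-Tm was then at 1.27, 1.52 and 1.53. The number of genes called, 105 by edgeR with TMM, was 11, 8 and 0 under these scalings, 192 without a filter, 191 by DESeq2, 371 with the composition covariate and 0 with the replicate block. It was between 0 and 75 with 1 library left out, with 0 without control 2 or control 3 and 25, 30, 54 and 51 without knockouts 2, 3, 4 and control 1. Where edgeR called 0, the genes at an unadjusted p under 0.05 numbered 28 (microRNA scaling), 338 (replicate block), 395 (without control 2) and 407 (without control 3).

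Deviations of same-numbered knockouts and controls correlated at 0.53, -0.80 and 0.32, and those of differently numbered ones at between -0.80 and 0.87. Same-numbered libraries thus did not stand out and were not taken as pairs in the main tests, though these values cannot exclude a pairing. With the numbers as a replicate block, mt-Tw over mt-Ti differed by 1.99 over 3 pairs, where the smallest possible exact p is 0.25. None of the 14 ratios passed after adjustment under a pseudocount of 5 or with medians, and each kept its sign under all 10 alternatives. With 1 library left out mt-Tw over mt-Ti differed by 1.58 to 2.10, though such designs cannot reach a p under 0.05. The share of mt-Tm in mitochondrial tRNA counts, 5.12 percentage points higher in knockouts, differed by -4.42 without knockout 4, -1.94 without control 1 and 13.6 without knockout 2, settings chosen after seeing the data. At these depths the 22 nuclear genes that handle the tRNAs could not be tested.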
